A study of Mus musculus with 4 samples.

Results

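The genes of the collagen chains were examined in RNA of lamina propria mononuclear cells, isolated from the stroma beneath the lining of the gut in mice given CD4 T cells. DKO (double knockout) samples came from recipients of CD4 cells without Hobit and Blimp-1, repressors of transcription in tissue-resident lymphocytes. Their colitis is described as mild. WT samples came from recipients of wild-type CD4 cells, with colitis described as pronounced. Each group had 2 biological replicates, which no label ties to separate animals or pools. P-values therefore measure only the spread between these samples, largely pooled across genes. Genotype refers to the transferred cells alone. Strain, sex and age of the host and the time after transfer were not in the sources used here. Genotype of the transferred cells and degree of colitis go together in every sample, so they cannot be told apart. Members were chosen by name, as the rows whose mouse symbol has the form of a collagen chain (Col, a number, a, a number), and there were 44 among 48526 gene identifiers. The authors deposited rlog values, regularized log2 levels in which differences are shrunk towards 0, above all in weakly expressed genes. Depth per sample is unknown.

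Collagens are trimers of chains that wind round each other through long stretches of glycine-containing repeats. Fibrillar collagens give interstitial tissue its tensile strength, collagen IV forms the sheet of basement membranes, collagen VI forms beaded microfilaments, and FACIT chains (fibril-associated collagens with interrupted triple helices) coat fibrils. In the gut wall the main producers are fibroblasts, smooth muscle cells, pericytes and endothelial cells, and leukocytes produce little. Chains are hydroxylated and folded in the endoplasmic reticulum, trimmed outside the cell and crosslinked.

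Collagen chains of nearly every class were higher in DKO samples. Of the 44 chains, 27 averaged an rlog of 4 or more across the samples and were tested. In limma with Benjamini-Hochberg adjustment over the 13528 genes tested, 24 of the 27 rose and 0 fell at an adjusted p under 0.05. At an unadjusted p under 0.05, 26 rose and 0 fell. Among all genes tested, 9.92% rose and 4.85% fell. Beside the chains, 8 of 10 fibroblast markers, 9 of 9 markers of smooth muscle and pericytes and 9 of 9 endothelial markers rose. In bulk RNA, fewer cells of a type and less RNA per cell cannot be told apart. The median log2 difference (DKO minus WT) was 1.02 over the 27 chains and -0.022 over all genes tested. A rise of more than 1 on the log2 scale was seen in 15 chains, against 1.81% of all genes. The 2 DKO values lay above both WT values in 26 of the 27, against 25.0% of all genes, and 0 had both DKO values below both WT values, against 30.3% of all genes. Col11a2 had overlapping values. In each of the 27 the mean of either group was above 4, so no chain entered the test through its DKO values alone. With no minimum level, 8 of 43 chains passed (0.719% of the 25186 genes then tested rose). Adjusted p of the 24 then ran between 0.0434 and 0.117. Without DKO replicate 2, 26 chains rose, and 24 without each of the other samples. With DKO replicate 1, DKO replicate 2, WT replicate 1 or WT replicate 2 left out, 9.47%, 12.3%, 7.72% and 7.45% of all genes rose. Where a sample is left out, the group with a single sample left is assumed to vary like the other. At a minimum of 6 all 20 chains left rose (7.96% of all genes). The number of chains that rose was 24 also without a variance trend, with robust variances, after median centring or quantile normalization and with sample weights (10.1%, 10.2%, 9.49%, 8.0% and 10.0% of all genes).

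**Figure D1:**
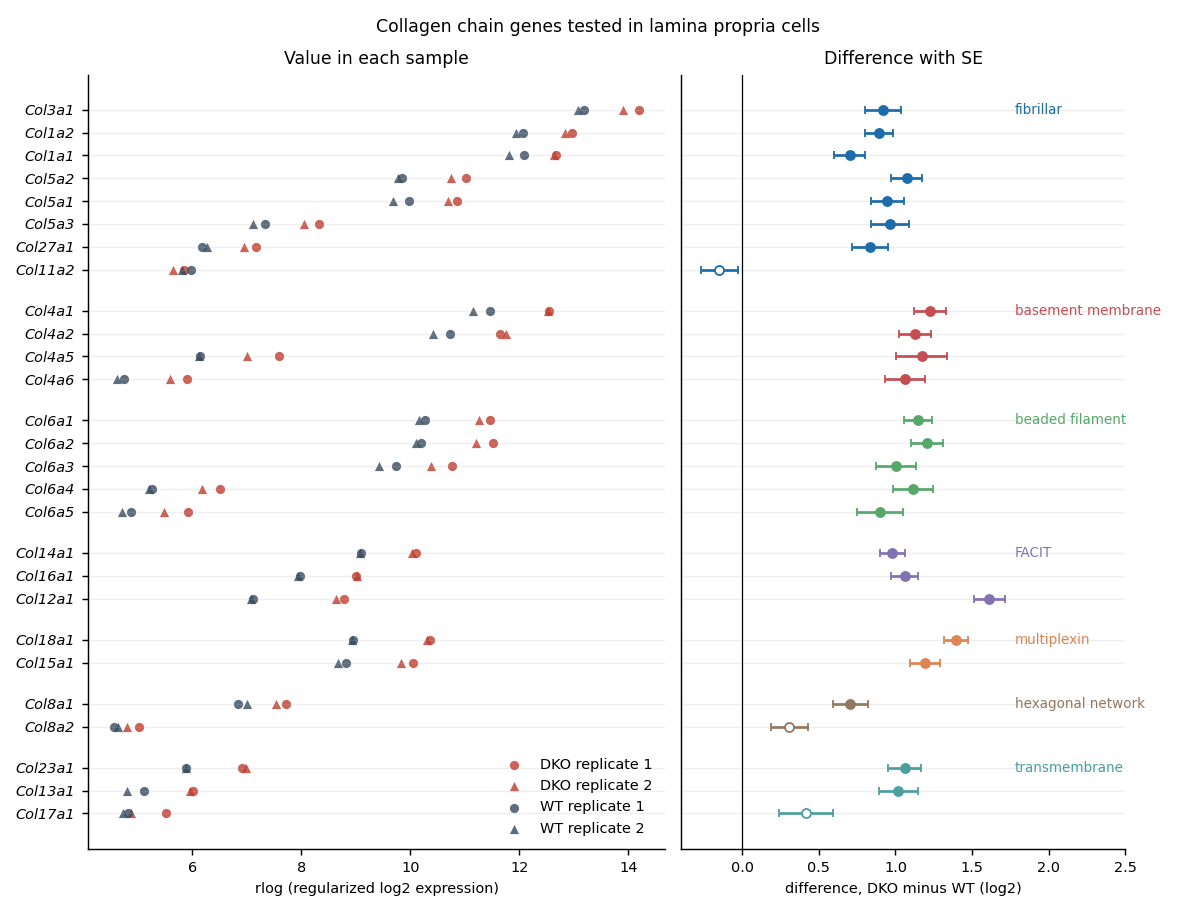
Left, the rlog of each tested collagen chain in every sample, with DKO samples in red and WT samples in dark blue, and replicate 1 as circles and replicate 2 as triangles. Right, the difference of group means with its SE from limma, filled where the adjusted p was under 0.05; in all chains but Col11a2 both red points lie to the right of both dark ones.

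Fibrillar collagens form the cross-striated fibres of the interstitium. Of 11 members 8 were tested and 7 rose, with a median difference of 0.91 over the 8. Col3a1, which encodes the single chain of collagen III (GRCm38 chromosome 1, 45311538 to 45349706, plus strand), stood at rlog levels of 14.20 and 13.91 in the DKO samples, against 13.19 and 13.07 in the WT samples. The groups stood apart, with a difference of 0.92 (SE 0.117, adjusted p = 0.000313), a fold of 1.89. Its level was above that of 99.0% of the genes tested. Collagen I is built from the products of Col1a1 and Col1a2. Col1a2 (chromosome 6, 4504814 to 4541544) stood at rlog levels of 12.96 and 12.83 in DKO samples, against 12.06 and 11.95 in WT samples, a difference of 0.89 (SE 0.0916, adjusted p = 8.36e-05). Col1a1 (chromosome 11, 94936224 to 94953042) stood at 12.67 and 12.63 in DKO samples, against 12.09 and 11.81 in WT samples. Its difference of 0.70 (SE 0.102, adjusted p = 0.000766, 1.62-fold) was the lowest among the 24 chains that rose.

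Collagen V co-assembles with collagen I and limits the width of its fibrils. Col5a2 (chromosome 1, 45374321 to 45503282) stood at rlog levels of 11.03 and 10.74 in the DKO samples, against 9.85 and 9.78 in the WT samples, a difference of 1.07 (SE 0.0991, adjusted p = 4.26e-05). Col5a1 was 0.95 higher in DKO (SE 0.105, adjusted p = 0.000133) and Col5a3 0.96 higher (SE 0.124, adjusted p = 0.000329). Col27a1, a fibrillar chain best known from cartilage, rose by 0.83 (adjusted p = 0.000615). The other cartilage chain with a testable level did not pass. Col11a2 had rlog values of 5.84 and 5.65 in DKO samples, against 5.98 and 5.81 in WT samples, and these values overlap (difference -0.15, SE 0.123, adjusted p = 0.501). Col2a1, Col11a1 and Col24a1 were under the minimum for testing. The cartilage chains Col2a1 and Col11a1 had means of -0.022 and 0.83, and Col24a1 had 2.71 and 2.56 in DKO samples, against 2.41 and 2.42 in WT samples.

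The RefSeq table of windows from 250 bases before to 50 after a gene's start (GRCm38.p6) held 35 of the 44 chains, in 38 windows. Col1a1, Col5a2, Col12a1 and Col14a1, which rose, had no window, and chains that were not tested are counted. Motif shares were not computed for the chains that rose alone. The stretch before the start of Col3a1, the chain with the highest level (chr1:45311288-45311537, plus strand), is shown 5′ to 3′ because its gene led the fibrillar class by level, with a match to TATAAA in capitals.
Col3a1: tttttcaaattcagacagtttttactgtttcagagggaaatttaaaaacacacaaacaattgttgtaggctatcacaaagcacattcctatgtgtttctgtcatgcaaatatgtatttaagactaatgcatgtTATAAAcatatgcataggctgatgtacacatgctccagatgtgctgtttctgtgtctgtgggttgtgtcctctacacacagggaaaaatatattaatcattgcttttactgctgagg
That match begins 117 bases before the start. Searched on both strands, TATAAA was in 13.2% of the collagen windows and 13.6% of all 32851 windows, CCAAT in 34.2% and 37.4%, and GGGCGG (the GC box) in 60.5% and 35.7%. These are matches of letters, no match overlapped one to another motif in the stretches shown, and no binding was measured.

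Basement membrane collagen rose in all 4 members that were tested, with a median of 1.15. Col4a1 and Col4a2 encode the chains of the collagen IV found in nearly all basement membranes, including those under vessels and epithelium. Col4a1 (chromosome 8, 11198423 to 11312826, minus strand) stood at rlog levels of 12.54 and 12.52 in DKO samples, against 11.46 and 11.14 in WT samples, a difference of 1.23 (SE 0.104, adjusted p = 2.92e-05, 2.34-fold). Col4a2 (chromosome 8, 11312805 to 11449287, plus strand) had 11.64 and 11.76 in DKO samples, against 10.72 and 10.42 in WT samples, a difference of 1.13 (SE 0.103, adjusted p = 4.06e-05). In both genes the WT samples lay further apart than the DKO samples. The genes lie head to head and their annotated starts overlap by 22 bases (chr8:11312805-11312826). This stretch is shown 5′ to 3′ on the strand of each gene because the pair rose together, with the match to GGGCGG or its complement in capitals.
Col4a1: ttggagacgCCGCCCgcgcact
Col4a2: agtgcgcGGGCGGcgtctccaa
The libraries were stranded but the strand setting of the counting is not given here. Exons shared with another annotated gene made up under 5% of the exon length of every tested chain, this pair included.

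A second head-to-head pair, Col4a5 and Col4a6 on chromosome X, encodes chains found in basement membranes of smooth muscle and some epithelia. Col4a5 had rlog values of 7.60 and 7.01 in DKO samples, against 6.14 and 6.13 in WT samples (difference 1.17, SE 0.165, adjusted p = 0.000607). Col4a6 had 5.90 and 5.60 in DKO samples, against 4.75 and 4.61 in WT samples (difference 1.07, SE 0.131, adjusted p = 0.000242). Both DKO values exceeded both WT values, and the DKO samples lay 0.59 apart in Col4a5. The remaining pair, Col4a3 and Col4a4, known from the filter of the kidney, was too low to test. Col4a4 had rlog values of 2.37 and 2.26 in DKO samples and 2.11 and 2.08 in WT samples. Col4a3 had 2.25 and 2.07 in DKO samples and 1.99 and 2.03 in WT samples.

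Collagen VI, the beaded filament of the tissue around cells, rose in all 5 members tested, with a median of 1.11. Col6a1 (chromosome 10, 76708792 to 76726168) stood at rlog levels of 11.47 and 11.25 in DKO samples, against 10.26 and 10.16 in WT samples, a difference of 1.15 (SE 0.0914, adjusted p = 2.67e-05). Its neighbour Col6a2, which lies 85161 bases away on the same strand, had 11.51 and 11.20 in DKO samples, against 10.20 and 10.10 in WT samples, a difference of 1.20 (SE 0.104, adjusted p = 3.05e-05). Col6a3, the large chain that completes the classical trimer, had 10.77 and 10.38 in DKO samples, against 9.73 and 9.42 in WT samples (difference 1.0, SE 0.132, adjusted p = 0.000378). All 3 chains of the trimer thus rose by about 1, each with groups apart and with replicate 1 above replicate 2 in either group. Col6a4, Col6a5 and Col6a6 are later-found chains that may take the place of the large one, and they lie in a row on chromosome 9. Col6a4 had rlog values of 6.51 and 6.18 in DKO samples, against 5.26 and 5.21 in WT samples (difference 1.11, SE 0.131, adjusted p = 0.000182). Col6a5 had 5.91 and 5.47 in DKO samples, against 4.88 and 4.71 in WT samples (difference 0.90, SE 0.149, adjusted p = 0.00168). Col6a6 was not tested and had a mean of 0.58.

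FACIT chains included the largest rise of the family. Col12a1, whose product sits on the surface of collagen I fibrils (chromosome 9, 79598991 to 79718831), stood at rlog levels of 8.78 and 8.64 in DKO samples, against 7.11 and 7.08 in WT samples. The difference of 1.61 (SE 0.0995, adjusted p = 9.42e-06) is a fold of 3.06 and was above that of 99.9% of the genes tested. Col14a1, a related fibril-surface chain, had 10.10 and 10.03 in DKO samples, against 9.09 and 9.08 in WT samples (difference 0.98, SE 0.0803, adjusted p = 2.74e-05). Col16a1 had 9.01 and 9.03 in DKO samples, against 7.98 and 7.93 in WT samples (difference 1.06, SE 0.089, adjusted p = 2.89e-05). These 3 of the 9 members were tested, and replicates of a group lay close together in each. The cartilage chains Col9a1, Col9a2 and Col9a3 had means between 0.94 and 2.80, and Col19a1 was at -1.49. Col20a1 had rlog values of 3.62 and 3.57 in DKO samples and 3.52 and 3.36 in WT samples. Col22a1, a chain of tissue junctions, had 3.61 and 3.63 in DKO samples and 3.24 and 3.17 in WT samples. With no minimum level its difference of 0.42 had an adjusted p = 0.0961.

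Multiplexins, which link basement membranes to the tissue beneath, both rose. Col18a1, the precursor of endostatin (chromosome 10, 77052178 to 77166548, minus strand), stood at rlog levels of 10.37 and 10.30 in DKO samples, against 8.94 in each WT sample. Its difference of 1.39 (SE 0.0797, adjusted p = 6.02e-06, 2.63-fold) had the smallest p of the family. Col15a1 (chromosome 4, 47208161 to 47313167, plus strand) had 10.05 and 9.83 in DKO samples, against 8.82 and 8.67 in WT samples (difference 1.20, SE 0.0975, adjusted p = 2.7e-05). The 250 bases before the RefSeq start of each (chr4:47207762-47208011, plus strand, and chr10:77166531-77166780, minus strand, the outer of a pair of Col18a1 starts) are shown 5′ to 3′ because these related genes both rose. Matches to CCAAT and GGGCGG on either strand are in capitals.
Col15a1: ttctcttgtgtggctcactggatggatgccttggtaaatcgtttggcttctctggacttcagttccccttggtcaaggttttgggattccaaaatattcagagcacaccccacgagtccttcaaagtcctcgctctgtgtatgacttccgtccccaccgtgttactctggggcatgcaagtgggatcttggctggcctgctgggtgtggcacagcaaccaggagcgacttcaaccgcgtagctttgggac
Col18a1: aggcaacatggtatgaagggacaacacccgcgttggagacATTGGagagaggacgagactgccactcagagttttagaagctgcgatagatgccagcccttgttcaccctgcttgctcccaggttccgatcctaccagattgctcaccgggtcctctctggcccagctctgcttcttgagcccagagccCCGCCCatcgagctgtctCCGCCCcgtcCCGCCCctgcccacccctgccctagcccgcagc
The Col18a1 stretch held 3 matches to GGGCGG on the other strand, beginning 61, 43 and 33 bases before the start, and the Col15a1 stretch held no match to any of the 3 motifs.

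The remaining classes were mixed. Network-forming Col8a1, a chain of vessel walls, rose by 0.71 (SE 0.115, adjusted p = 0.00155), with 7.72 and 7.53 in DKO samples, against 6.84 and 7.0 in WT samples. Its partner Col8a2 had 5.02 and 4.80 in DKO samples, against 4.56 and 4.64 in WT samples, and did not pass (difference 0.31, SE 0.119, adjusted p = 0.121). The difference of Col8a2 was 0.42 without DKO replicate 2 and 0.20 without DKO replicate 1. Col10a1, the chain of hypertrophic cartilage, was listed at 0 in every sample. Of the transmembrane collagens, Col23a1 had rlog values of 6.91 and 6.98 in DKO samples, against 5.89 in both WT samples (difference 1.06, SE 0.109, adjusted p = 8.61e-05). Col13a1 had 6.01 and 5.96 in DKO samples, against 5.12 and 4.81 in WT samples (difference 1.02, SE 0.128, adjusted p = 0.000289). Col17a1, a hemidesmosome protein of epithelial cells, had 5.51 and 4.88 in DKO samples, against 4.83 and 4.73 in WT samples. It did not pass (difference 0.42, SE 0.176, adjusted p = 0.156), and only DKO replicate 1 stood clear of the rest. Without DKO replicate 2 its difference was 0.73, and without DKO replicate 1 it was 0.10. Col25a1 had a mean of 1.1.

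Just below the minimum for testing were Col28a1 and Col7a1. Col28a1, a chain known from peripheral nerve, had rlog values of 4.16 and 4.23 in DKO samples, against 3.71 and 3.73 in WT samples. With no minimum level its difference of 0.48 had an adjusted p = 0.0852. Col7a1, the anchoring fibril of stratified epithelium, had 4.16 and 3.95 in DKO samples and 3.86 and 3.84 in WT samples (adjusted p = 0.432 in the same fit). The 17 untested chains differed by at most 0.48 between groups, and 7 had a mean below 1. Rlog holds such low genes close to their mean, and no test was made of them as a set. Col26a1 stood near -2.0 in every sample.

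**Figure D2:**
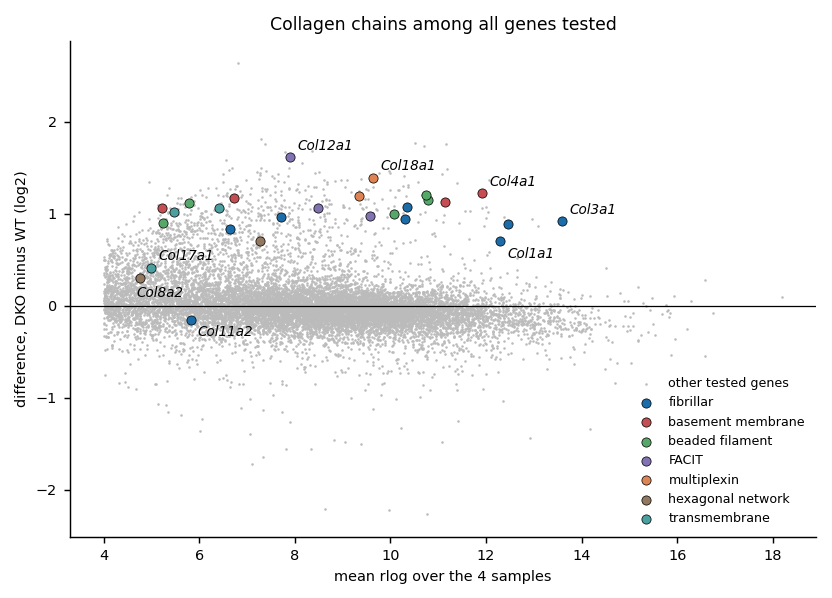
Difference of group means (DKO minus WT, log2) against the mean rlog over the 4 samples, for the tested collagen chains by class and for all other genes tested (grey). The 24 chains that rose lie between Col1a1 at 0.70 and Col12a1 at 1.61. The other 3 have means under 6, with Col17a1 at 0.42, Col8a2 at 0.31 and Col11a2 at -0.15.

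Spearman's rho between difference and mean rlog was 0.28 across the 27 chains and -0.31 across all genes tested. These are descriptions across genes measured in the same 4 libraries. Chains could be set in order of level only per length, as rlog minus log2 of the length of all annotated exons in kb. On that scale Col3a1 was the highest chain in every sample, with 10.90 and 10.61 in DKO samples, against 9.90 and 9.77 in WT samples. Col1a1 came next in every sample, with 9.95 and 9.92 in DKO samples and 9.38 and 9.09 in WT samples. Col4a1 was next by mean, with 9.63 and 9.62 in DKO samples and 8.56 and 8.24 in WT samples. Col1a2 stood at 9.33 and 9.19 in DKO samples and 8.42 and 8.31 in WT samples, and with this length its WT values overlapped those of Col4a1. The place of Col1a2 depended on the length used. With the longest protein-coding transcript (5.35 kb for Col1a2, against 12.43 kb for all its annotated exons) its mean over the samples was 10.03, above 9.73 for Col1a1 and 9.19 for Col4a1. Col6a1 followed, with 9.34 and 9.12 in DKO samples and 8.13 and 8.03 in WT samples, and in DKO samples it overlapped Col1a2 by the length of all exons. At the low end were Col4a6 and Col6a5, with means of 2.22 and 2.01.

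**Figure D3:**
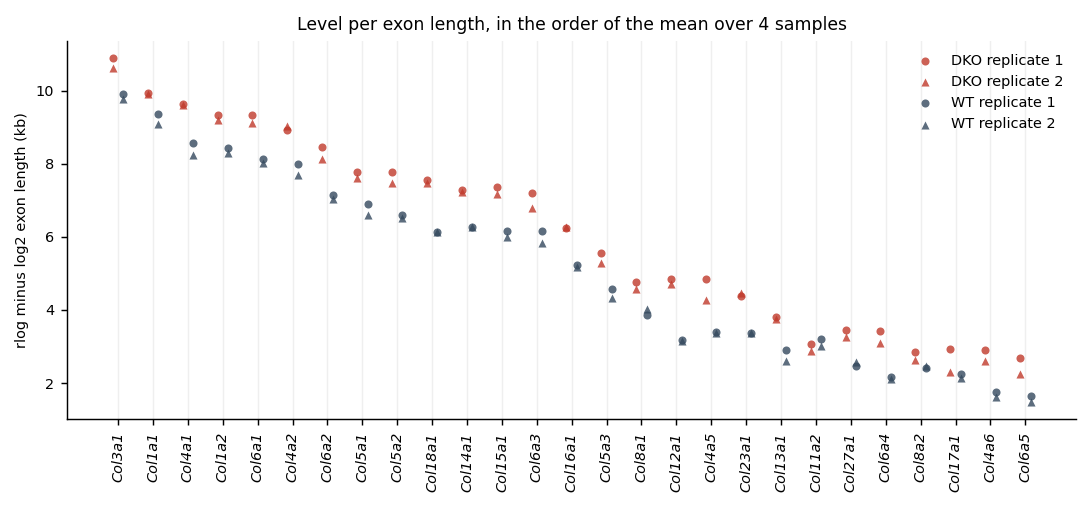
Level per exon length (rlog minus log2 of the exon length in kb) of the 27 tested chains, in the order of their mean, with DKO samples in red on the left and WT samples in dark blue on the right of each position. Levels fall from a mean of 10.30 for Col3a1 to 2.01 for Col6a5, and neighbours in the order often overlap.

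The ratio between chains of one trimer changed by at most 0.19 on the log2 scale in the pairs computed, and some ratios between chains of different collagens changed by more. Ratios were taken within each sample, as a difference of rlog between 2 chains, so lengths cancel in the comparison of groups. The ratio of Col4a2 to Col4a1 was -0.89 and -0.77 in DKO samples, against -0.74 and -0.73 in WT samples. That of Col6a2 to Col6a1 was 0.04 and -0.05 in DKO samples, against -0.06 and -0.07 in WT samples. The Col5a2 to Col5a1 ratio was 0.18 and 0.04 in DKO samples and -0.13 and 0.10 in WT samples, with overlap. These partner ratios changed by -0.10, 0.06 and 0.12. The ratio of Col1a2 to Col1a1 was 0.30 and 0.20 in DKO samples, against -0.03 and 0.14 in WT samples, a change of 0.19. The ratio of Col4a1 to Col1a1 was -0.13 and -0.11 in DKO samples, against -0.63 and -0.66 in WT samples, a change of 0.53 with a gap between groups far wider than the spread within them. For Col12a1 to Col1a1 the values were -3.89 and -3.99 in DKO samples, against -4.98 and -4.72 in WT samples, a change of 0.91. Both ratios are taken to Col1a1, which had the smallest difference of the chains that rose, and Col12a1 had the largest. The other ratios computed between different collagens changed by 0.22 (Col3a1 to Col1a1) and 0.2 (Col18a1 to Col15a1). These ratios are descriptions, and no test was made of them (an exact permutation test of 2 against 2 samples cannot give a two-sided p below 0.333). Col1a1 made up 10.9% and 11.9% of the summed level (2 to the power of rlog) of the 27 chains in DKO samples, against 14.4% and 13.3% in WT samples. Col4a1 made up 9.95% and 11.1% in DKO samples, against 9.3% and 8.41% in WT samples.

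**Figure D4:**
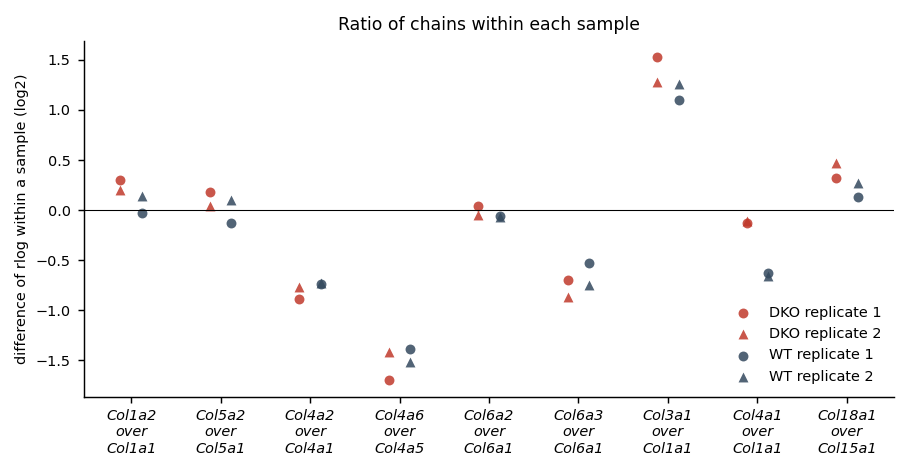
Log2 ratio of chains within each sample (difference of rlog), with DKO samples in red on the left and WT samples in dark blue on the right of each position. Group means of partners in a trimer differ by at most 0.19, while Col4a1 over Col1a1 is at -0.13 and -0.11 in DKO samples and at -0.63 and -0.66 in WT samples. Group means of Col3a1 over Col1a1 differ by 0.22 and those of Col18a1 over Col15a1 by 0.2.

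Replicates of a group also differed in step. DKO replicate 1 had the higher value in 24 of the 27 chains, the exceptions being Col4a2, Col16a1 and Col23a1, with a median gap of 0.21. WT replicate 1 was the higher of its pair in 24, with a median gap of 0.11, the exceptions being Col27a1, Col8a1 and Col8a2. Over all 13528 genes tested, replicate 1 was the higher in 6637 in DKO samples and in 7028 in WT samples, with median gaps of 0 and 0.01. Among 10 fibroblast markers, which hold no collagen, DKO replicate 1 was likewise the higher in 8 (median gap 0.31). It was the higher in 1 of 9 markers of smooth muscle and pericytes (median gap -0.39) and in 2 of 9 endothelial markers (median gap -0.09). In WT samples replicate 1 was the higher in 9 of 9 muscle and pericyte markers (median gap 0.84). It was also the higher in 8 of 9 endothelial markers (median gap 0.2) and in 5 of 10 fibroblast markers (median gap 0.01).

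Most markers of the cells that make collagen were also higher in DKO samples. Of 10 fibroblast markers 8 rose and 0 fell, with a median of 0.87, where 9.92% of all genes tested rose and 4.85% fell. Their summed level was 31578 to 37226 in DKO samples and 22418 to 23524 in WT samples. Pdgfra, a growth factor receptor of fibroblasts, had rlog values of 10.21 and 9.83 in DKO samples, against 9.01 and 8.89 in WT samples (difference 1.07, adjusted p = 0.000114). Thy1 and Pi16 did not pass, and Thy1 is also a T cell gene in mice. All 9 markers of smooth muscle and pericytes rose (median 1.29, summed level 18146 to 22892 in DKO samples and 5648 to 10415 in WT samples). All 9 endothelial markers rose (median 1.21, summed level 5261 to 5644 in DKO samples and 2655 to 3023 in WT samples). The summed level of the 27 collagen chains was 53133 to 59666 in DKO samples and 26883 to 30298 in WT samples, a fold of 1.97. That of the muscle and pericyte markers differed by 2.55-fold, of the endothelial markers by 1.92-fold and of the fibroblast markers by 1.5-fold. The fibroblast sum includes Thy1, with rlog values of 12.95 and 13.21 in DKO samples and 13.18 and 13.22 in WT samples. Thy1 weighs heavily in that sum, so its 1.5-fold is no measure of fibroblast genes alone. The part of fibroblasts, muscle cells, pericytes and endothelial cells in the rise of the collagen chains was not tested.

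Leukocyte genes were at high levels, as the label of mononuclear cells implies. Ptprc, the leukocyte antigen CD45, stood at 14.20 and 14.02 in DKO samples and 14.22 and 14.26 in WT samples. Ms4a1, a B cell gene, stood between -1.04 and -1.02. Of the 8 leukocyte markers tested, 4 fell (Itgam, Lyz2, Cd68 and Csf1r, genes of myeloid cells) and 0 rose (0 at the adjusted threshold in limma, 0 at an unadjusted p under 0.05). Of all genes tested, 4.85% fell and 9.92% rose. The 10 listed leukocyte markers summed to 55277 to 56213 in DKO samples and 70271 to 71591 in WT samples. Lyz2, at 14.30 and 14.31 in DKO samples and 14.85 and 14.93 in WT samples, weighs most in this sum. Ptprc, Cd3e, Cd4 and Itgax did not pass. Epithelial markers were abundant in every sample, such as the keratin Krt8 at 12.47 and 12.30 in DKO samples and 12.29 and 12.41 in WT samples. Of 9 epithelial markers 0 passed in either direction (1 at an unadjusted p under 0.05), with a summed level of 18064 to 19322 in DKO samples and 18020 to 19975 in WT samples. Of 7 markers of enteric glia and neurons, 2 could be tested and both rose (Tubb3 and Ret), while the glial genes S100b and Sox10 were near 0. The part of the epithelial, leukocyte and nerve cells in the values of the collagen chains was not tested.

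Genes of collagen assembly were partly higher in DKO samples. Of 18 tested genes of hydroxylation and folding in the endoplasmic reticulum 11 rose and 0 fell, with a median of 0.52. Of all genes tested, 9.92% rose and 4.85% fell. Serpinh1, the collagen chaperone HSP47, had rlog values of 11.55 and 10.94 in DKO samples, against 9.92 and 9.87 in WT samples (difference 1.35, SE 0.151, adjusted p = 0.000143). Fkbp10, a prolyl isomerase that acts on procollagen, had 8.01 and 7.98 in DKO samples, against 7.06 and 7.15 in WT samples (difference 0.89, SE 0.102, adjusted p = 0.000157). The prolyl 3-hydroxylase P3h2 had 5.76 and 5.77 in DKO samples, against 4.90 and 4.74 in WT samples (difference 0.94, SE 0.115, adjusted p = 0.000241). The others that rose were P3h3, P3h4, Crtap, Plod1, Plod2, P4ha2, P3h1 and Colgalt2, by 0.39 to 0.81. The 7 that did not pass included genes that most secretory cells use. The protein disulfide isomerase P4hb, which is also a subunit of prolyl 4-hydroxylase, stood at 13.32 and 13.34 in DKO samples and 13.38 and 13.37 in WT samples. The cyclophilin Ppib stood at 12.24 and 12.27 in DKO samples and 12.25 and 12.28 in WT samples. P4ha1, Plod3, Colgalt1, Mia3 and Creb3l1 had differences between -0.07 and 0.06. Leaving out single samples ended the calls of P3h1, P4ha2 and Colgalt2. P3h1 did not pass without DKO replicate 2, WT replicate 1 or WT replicate 2 (adjusted p = 0.0528, 0.0609 and 0.161), nor P4ha2 without WT replicate 1 (adjusted p = 0.0609). Colgalt2 did not pass without DKO replicate 1 (0.35, adjusted p = 0.0808) or WT replicate 2 (adjusted p = 0.0704). After quantile normalization P3h1 did not pass (adjusted p = 0.0531).

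All 5 tested genes of propeptide removal rose, with a median of 0.76, where 9.92% of all genes tested rose. Pcolce, which speeds the trimming of the procollagen tail, had rlog values of 10.09 and 9.80 in DKO samples, against 8.84 and 8.92 in WT samples (difference 1.07, SE 0.102, adjusted p = 5.41e-05). Adamts2, which removes the amino-terminal propeptide, rose by 0.83 (SE 0.0913, adjusted p = 0.000129), and Bmp1, which removes the carboxy-terminal one, by 0.76 (SE 0.0978, adjusted p = 0.000344). Pcolce2 (0.45) and Adamts14 (0.57) did not pass without WT replicate 2 (adjusted p = 0.0565 and 0.159), nor did Pcolce2 without WT replicate 1 (adjusted p = 0.138). Without DKO replicate 1 Adamts14 was at 0.35 (adjusted p = 0.125). Neither passed after quantile normalization (adjusted p = 0.13 for Pcolce2 at 0.28 and 0.0843 for Adamts14). All 5 lysyl oxidases, which crosslink the finished fibril, rose with a median of 0.55. Loxl2 had 9.23 and 9.18 in DKO samples, against 8.20 and 8.07 in WT samples (difference 1.07, SE 0.0915, adjusted p = 3e-05). Loxl1 rose by 0.81 (SE 0.0909, adjusted p = 0.000142). Lox (0.38), Loxl3 (0.54) and Loxl4 (0.55) did not pass without WT replicate 2 (adjusted p = 0.163, 0.0653 and 0.118), nor did Lox without DKO replicate 1 (adjusted p = 0.0823).

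Receptors of collagen rose in 6 of the 10 tested and fell in 1, against 9.92% and 4.85% of all genes tested. Ddr2, a receptor tyrosine kinase of mesenchymal cells that binds fibrillar collagen, had rlog values of 9.77 and 9.61 in DKO samples, against 8.49 and 8.30 in WT samples (difference 1.29, SE 0.0985, adjusted p = 2.02e-05). The uptake receptor Mrc2 rose by 0.83 (SE 0.112) and the integrin chains Itga1 and Itga11 by 0.75 (SE 0.0892) and 0.76. Adgrg6 rose by 0.49 and Itgb1 by 0.30. Itgb1 did not pass without WT replicate 2 (0.20, adjusted p = 0.505), nor did Adgrg6 without WT replicate 1 or 2 (adjusted p = 0.0658 and 0.0525). The call of Itgb1 also ended at a minimum rlog of 6 (adjusted p = 0.0505), without a variance trend (adjusted p = 0.083) and after median centring (adjusted p = 0.0501), and that of Adgrg6 after quantile normalization (adjusted p = 0.057). Lair1, an inhibitory receptor of leukocytes, fell by 0.42, with 9.26 and 9.18 in DKO samples, against 9.58 and 9.69 in WT samples (adjusted p = 0.00614, and adjusted p = 0.073 without WT replicate 2). Collagen cleavage went both ways. The gelatinase Mmp2 rose by 0.69 (SE 0.0834, adjusted p = 0.000222), with 10.73 and 10.80 in DKO samples, against 10.00 and 10.15 in WT samples, and the collagen-degrading cathepsin Ctsk rose by 0.62 (adjusted p = 0.00454). The neutrophil enzymes Mmp9 and Mmp8 fell by 1.0 (SE 0.104, adjusted p = 9.07e-05) and 1.48 (SE 0.217, adjusted p = 0.000766), beside 4 falls among 8 leukocyte markers. With robust variances Mmp8 did not pass (adjusted p = 0.214). The collagenase Mmp13 had 11.32 and 11.35 in DKO samples and 11.14 and 11.28 in WT samples and did not pass. Mmp14 and Fap did not pass, and without DKO replicate 2 their differences were -0.35 and 0.45.

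**Figure D5:**
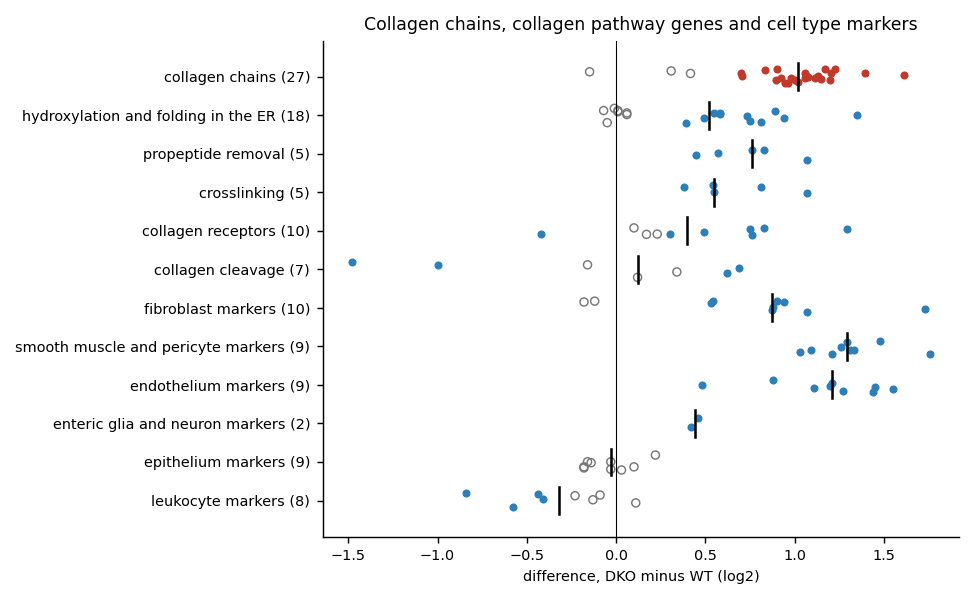
Difference of group means (DKO minus WT, log2) of each tested gene of the collagen chains (red), the collagen pathway and the cell type marker lists; filled points had an adjusted p under 0.05, open points did not, and bars are list medians. Collagen chains (median 1.02) lie with the fibroblast, muscle and endothelial markers, and epithelial markers lie around 0.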

How the data were processed

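Mononuclear cells of the lamina propria gave RNA for 2 samples after transfer of DKO CD4 cells and for 2 after transfer of wild-type CD4 cells, sequenced as stranded mRNA libraries per the labels' protocols. The submitters' processing notes name STAR 2.5.4a, BWA 0.7.14-r1136, cutadapt 1.9.1, bcl2fastq 2.17.1.14, featureCounts of Subread 1.5.2, DESeq2 and the build GRCm38, with no roles. The authors deposited regularized log2 values (rlog) for 48526 gene identifiers. No counts were used, so the depth of each sample is unknown and no counting interval could be given. Of the 6 columns of values, 2 match no sample and were not used. Whether these 2 shaped the rlog values of the other columns is unknown.

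The deposited log2 values of genes with a mean of at least 4 over the 4 samples (13528 genes) were tested in limma 3.58.1 (R 4.3.3) with a variance trend, two-sided, with Benjamini-Hochberg adjustment over these genes and a threshold of 0.05. Differences are DKO minus WT, and an SE is the moderated SE of the fit. The moderated variance draws more on the other genes (prior degrees of freedom 8.9) than on the gene's own samples (residual degrees of freedom 2). The procedure was tested on simulated data. Summed levels are sums of 2 to the power of rlog, in which longer transcripts weigh more. Exon lengths and coordinates came from the GENCODE annotation of GRCm38 and promoter windows from RefSeq (GRCm38.p6). Replicate numbers follow accession order and pair no samples.

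Members were every gene with a collagen chain symbol. Members, classes and lists were chosen with earlier results of these data known. Per class, values of every sample are given for the chains with the smallest p or highest mean and for those that did not pass, and per pathway list for up to 3 genes with the smallest p. Other genes named were chosen after their values were seen. Alternatives were other minimum levels, variance estimates, scalings and sample weights, and leaving out each sample.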

Additional observations from a re-analysis of the deposited data

How the results depend on the processing

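The minimum level had the widest effect. With none, 181 genes of the whole table rose and 25 fell, and 8 collagen chains rose, against 24 with the minimum (Col12a1, Col14a1, Col16a1, Col18a1, Col15a1, Col23a1, Col6a1 and Col1a2). By class and list, the numbers that rose were then 1 fibrillar, 0 basement membrane (limma, 5 at an unadjusted p under 0.05), 1 beaded filament, 0 hexagonal (2 unadjusted) and 1 transmembrane chain, and 1 gene of hydroxylation and folding, 1 of propeptide removal, 2 of crosslinking, 2 receptors and 0 of cleavage (2 unadjusted). Falls were 0 receptors (1 unadjusted) and 0 cleavage genes (2 unadjusted). With a minimum of 6, 878 genes rose. All 3 beaded filament chains and the 1 transmembrane chain left to test at that minimum were among them. Quantile normalization left 3 rises in propeptide removal, and a robust variance 1 fall in cleavage. The 27 tested chains kept their calls under every other variance, scaling and weight setting, as did the 20 left at a minimum of 6. Without DKO replicate 2, the differences of Col8a2 and Col17a1 were 0.42 and 0.73. The median of all genes was -0.0219 as deposited, -0.0319 after median centring and -0.036 after quantile normalization.

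Leaving out 1 sample gave 24 to 26 chains that rose, 1 to 2 hexagonal and 2 to 3 transmembrane, and, in the lists, 9 to 10 hydroxylation and folding genes, 3 to 5 of propeptide removal, 2 to 5 of crosslinking, 4 to 6 receptors and 2 to 3 of cleavage, with 0 to 1 receptors and 2 to 3 cleavage genes that fell. The group with a single sample left is then assumed to vary like the other. Genes that fell in the whole table numbered 1222 without DKO replicate 2, 421 without WT replicate 1 and 324 without WT replicate 2, against 656. Differences that changed sign were all of genes that did not pass: P4hb 0.082 and Ppib 0.099 (quantile), Mia3 -0.0012 (median centring), Ppib 0.00039, Mia3 -0.028, Cd93 -0.031 and Mmp14 0.022 (without DKO replicate 1), Colgalt1 -0.073 (without DKO replicate 2), Creb3l1 -0.17 (without WT replicate 1), and Ppib 0.0019 and Cd93 -0.077 (without WT replicate 2). At the other end of the values with 1 sample left out stood Colgalt1 at 0.10, Mia3 at 0.046, Creb3l1 at 0.30, Cd93 at 0.27 and Mmp14 at -0.35. The cause of these changes was not tested. By transcript length, an alternative chosen after seeing the data, 11 chains changed rank and 16 did not. No paired analysis was possible because the labels give no replicate numbers.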

Other observations

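Genes whose products hold a collagen-like stretch but are no collagens went both ways. Of 25 such genes, a list chosen after the data were seen, 16 were tested. Of these 6 rose and 7 fell (median 0.06), against 9.92% and 4.85% of all genes tested. All 3 chains of complement C1q, made mainly by macrophages, fell. C1qb had rlog values of 11.97 and 12.10 in DKO samples, against 12.50 and 12.57 in WT samples (difference -0.50, SE 0.0885, limma adjusted p = 0.00247). The macrophage scavenger receptor Marco fell by 1.16 (SE 0.204, adjusted p = 0.00246), with 6.85 and 7.45 in DKO samples, against 8.60 and 8.02 in WT samples. Msr1, another scavenger receptor, fell by 0.65 (SE 0.0789, adjusted p = 0.000228), and Fcnb and Emilin2 also fell. The elastic fibre protein Emilin1 rose by 0.81 (adjusted p = 0.000617), with 9.96 and 9.77 in DKO samples, against 9.22 and 8.89 in WT samples. Emid1, C1qtnf1, C1qtnf2, Scara3 and Scara5 also rose, by 0.58 to 0.84.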
